A study of Mus musculus with 16 samples.

Results

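The mitochondrial ribosomal protein genes were taken by name, as every protein-coding gene whose mouse symbol is Mrpl or Mrps followed by a digit. This gave 78 of the 55573 genes in the count table. By the structures of the mammalian mitoribosome, 51 of them encode proteins of the large subunit and 26 encode proteins of the small subunit. The other one, Mrps36, carries the family's name but its protein is now assigned to the α-ketoglutarate dehydrogenase complex. Mrps30 and Mrps18a were counted with the large subunit, where the structures place their proteins. All 78 genes had at least 10 counts in at least 4 mice and all 78 passed the expression filter of the test. The lowest count of any of them in any mouse was 141, so no gene of the family was lost to low counts.

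Mitochondrial ribosomes translate the small set of respiratory chain and ATP synthase subunits that mitochondrial DNA encodes, on which the heart depends for most of its ATP. Their ribosomal RNAs are transcribed from mitochondrial DNA inside the organelle. All of their proteins are nuclear-encoded, made on cytosolic ribosomes and imported, so a complete particle needs balanced output of both genomes. By the standard names of the proteins, 46 of the genes encode homologs of bacterial ribosomal proteins and 31 encode proteins specific to mitochondria.

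RNA-Seq libraries were made from the heart apex of 16 male mice, 4 in each of 4 groups. Every mouse was a WT animal that had received, under the skin on postnatal day 1, an AAV9 vector whose insert was driven by the chicken cTNT promoter, which is active in cardiomyocytes. The insert was GFP or the full-length mouse long noncoding RNA Cardinal, named Gm12295 in the annotation. The mice then had a sham operation or transverse aortic constriction (TAC), a ligature that loads the left ventricle with pressure, and hearts were collected 4 weeks later. The groups are named by virus and operation, and the mice keep the numbers their labels give them. All 4 groups share the virus serotype and the promoter, there was no group without virus, and the strain and the age at collection were not given in the sources used here.

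Total counts per mouse ran from 16441997 to 21904589, and the lowest total belonged to AAV9-Cardinal sham mouse 4. A count of 3 corresponded to between 0.126 and 0.195 CPM, the counts of a gene scaled to a common library size, across the mice, far below every gene of the family. Gm12295 stood at 4.77 ± 1.03 CPM in AAV9-GFP sham hearts and at 31.0 ± 6.25 CPM in AAV9-Cardinal sham hearts (SD, n = 4). Among the AAV9-Cardinal TAC hearts it reached 93.9 CPM in mouse 1 and lay between 18.3 and 20.6 CPM in the others, so the counts and medians of the comparisons that include mouse 1 are also given without it. The cardiomyocyte marker genes (Myh6, Tnnt2, Tnni3, Actc1, Ryr2, Myl2, Pln and Atp2a2) summed to between 39041 and 56690 CPM in every mouse. Reads of cardiomyocytes and of other heart cells are mixed in such libraries, and fewer cells of a type cannot be told apart from less RNA per cell.

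In the AAV9-GFP sham hearts the genes of the family were expressed at moderate levels, with group means from 9.28 CPM for Mrps11 to 199.6 CPM for Mrpl42 and a median of 26.3 CPM. Only 2 genes were under 10 CPM and 10 were over 50 CPM. Per kilobase of annotated exon the range was 37.1-fold, around a median of 11.3 CPM per kb. Genes of the large subunit had a median of 12.5 CPM per kb and genes of the small subunit a median of 8.47 CPM per kb. The proteins are built into the particle in fixed numbers, and the transcript levels per length were far from equal.

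The highest level per length was that of Mrps23, a mitochondrion-specific protein of the small subunit, at 57.4 ± 1.66 CPM per kb (SD, n = 4). Mrpl42, a mitochondrion-specific protein of the large subunit, followed at 54.2 ± 4.00 CPM per kb. Mrps21, a small subunit protein with a bacterial homolog, stood at 53.3 ± 1.26 CPM per kb. The AAV9-GFP sham mice of Mrpl42 overlapped those of Mrps23 and those of Mrps21, so the place of Mrpl42 among these 3 genes is not fixed by the data. Every mouse was higher for Mrps23 than any mouse for Mrps21. Mrpl34 (41.7 ± 3.63), Mrpl12 (41.6 ± 1.36), which forms the stalk that recruits elongation factors, and Mrpl18 (40.4 ± 0.33 CPM per kb) came next and overlapped each other, and all of their mice lay below those of the first 3. At the other end Mrpl17 (3.18 ± 0.0694), Mrpl48 (3.07 ± 0.106) and Mrpl19 (2.99 ± 0.057 CPM per kb) had overlapping mice, and Mrps10 was lowest at 1.55 ± 0.158 CPM per kb with no mouse in common with them. Mrps36, the gene outside the ribosome, was 15th at 21.3 ± 0.626 CPM per kb. With the longest annotated transcript as the length, 5 of the 6 highest genes were the same, Mrps21 came first and Mrpl48 moved to 67th place.

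**Figure D1:**
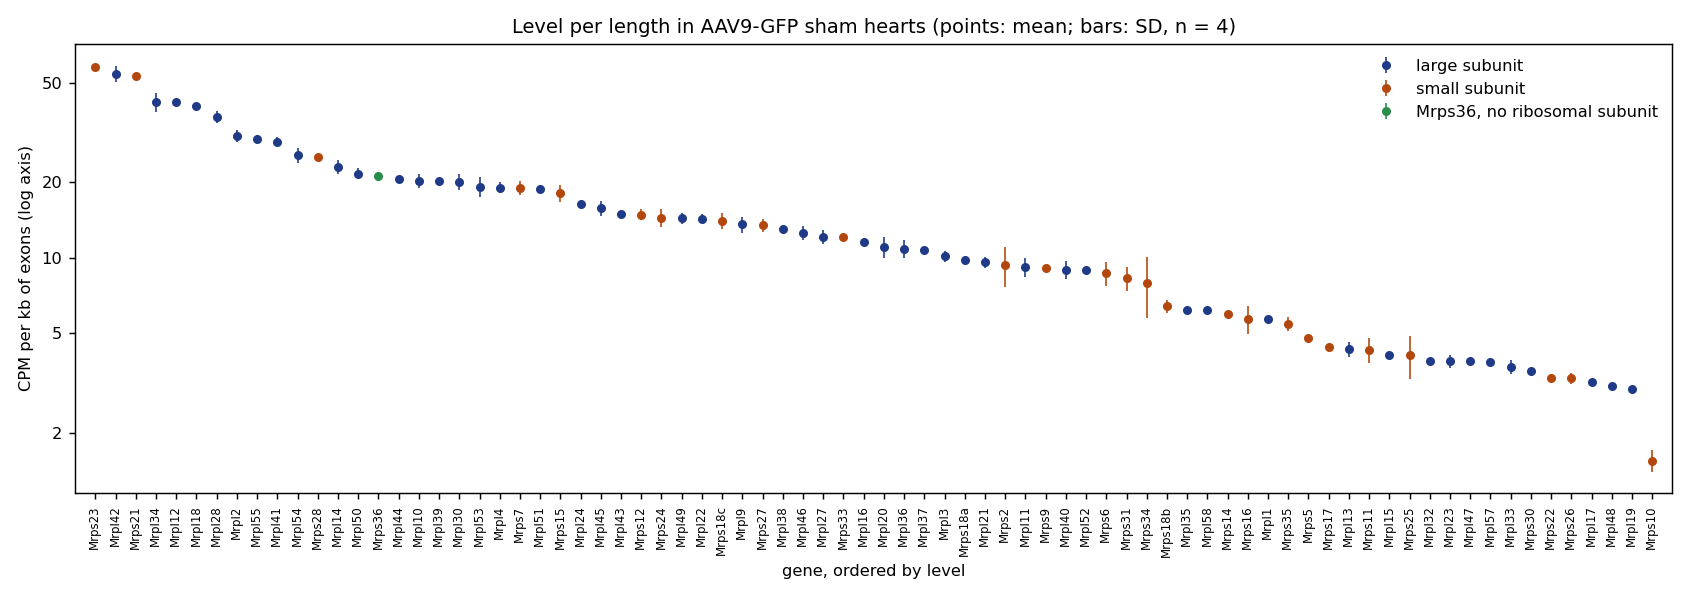
Level of each of the 78 genes in AAV9-GFP sham hearts, in CPM per kb of exon on a log scale, ordered by level, with points for the mean of 4 mice, bars for the SD and colours for the subunit. The genes run from 1.55 CPM per kb for Mrps10 to 57.4 CPM per kb for Mrps23.

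Within a group the family was steady from mouse to mouse. The median coefficient of variation over the 78 genes was 4.99% in AAV9-GFP sham, 5.99% in AAV9-GFP TAC, 5.88% in AAV9-Cardinal sham and 6.27% in AAV9-Cardinal TAC hearts. Over 7438 other genes in the same range of levels it was 6.81%, 7.72%, 6.83% and 7.31% in the same order. Mrps34 and Mrps25 were among the least steady: Mrps34 ran from 10.1 to 20.1 CPM in AAV9-GFP sham hearts, and Mrps25 stood at 34.4 CPM in mouse 4 of that group against 23.3 to 24.8 CPM in the others. Exons of Mrps25 are overlapped over 69.8% of their length by the antisense gene Nr2c2, and those of Mrps34 over 77.8%, mainly by its neighbours, so reads of these genes may not be their own.

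Many genes of the family share their start region with a neighbour. A gene on the opposite strand that starts within 1000 bases, head to head, was annotated for 33 of the 78 genes (42.3%). Among 21980 protein-coding genes the share was 10.8%. Those include genes not expressed enough to be tested here, and the share among tested genes was not taken. Mrpl57 and Ska3 start 49 bases apart, Mrpl49 and Fau 59 bases apart, and Mrpl50 and Zfp189 83 bases apart. Mrpl46 and Mrps11 face each other with overlapping starts, a pair of mitoribosomal genes in one locus. These distances are from GENCODE M21 on GRCm38.

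RefSeq promoter windows (GRCm38.p6, 250 bases before to 50 after a gene's start) were found for 69 of the 78 genes and were searched on both strands for words of factors known for nuclear genes of mitochondria. The NRF1 word GCATGCGC was in the windows of 11.6% of the genes with a window, against 5.71% of 10791 tested genes. The ETS word CCGGAAG, which GABP binds, was in 37.7% against 19.1%, and the YY1 word AAGATGGCG in 11.6% against 3.39%. The ERR word TCAAGGTCA was in none of the 69 and in 0.334% of tested genes. The E-box CACGTG was in 7.25% against 11.6%, and the GC box GGGCGG in 49.3% against 66.6%. Over the windows of all 27025 genes the shares were 3.05% for NRF1, 9.93% for ETS, 1.64% for YY1, 0.466% for ERR, 8.09% for the E-box and 38.2% for the GC box. The words do not contain one another. A match is a description of the letters and not of binding.

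**Figure D2:**
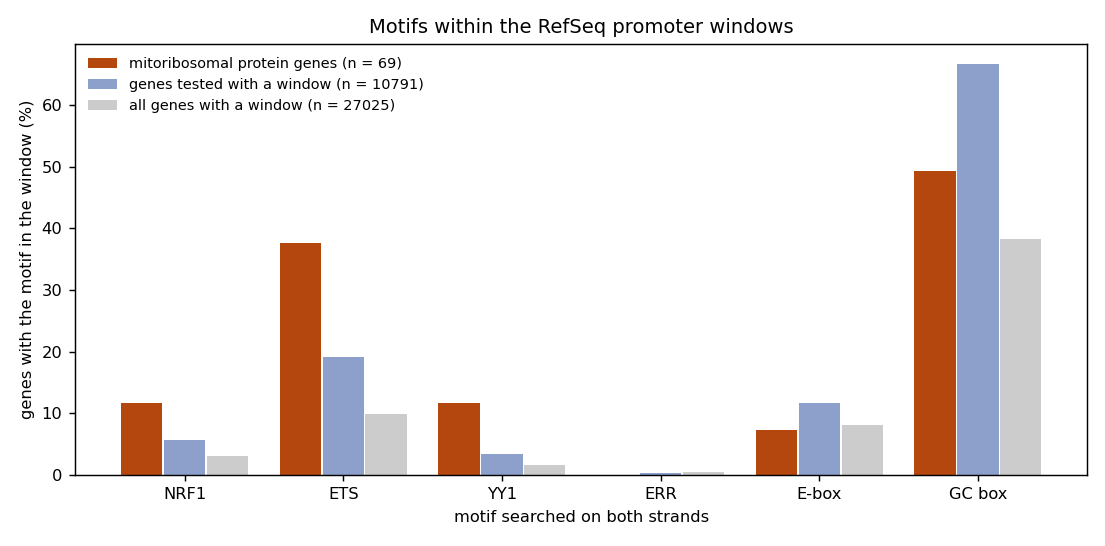
Share of genes whose RefSeq promoter window holds each of 6 words on either strand, in percent, for 69 mitoribosomal protein genes, 10791 tested genes and all 27025 genes with a window. The ETS bar of the family (37.7%) is higher than that of tested genes (19.1%), and its GC box bar (49.3%) is lower (66.6%).

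The windows of 5 genes are shown as examples of genes that passed the test in AAV9-GFP hearts and hold one of these words, the first 3 with lower and the last 2 with higher levels after TAC. The windows of Mrpl14 and Mrpl20, which had the second largest lower and the largest higher value, hold no NRF1, ETS, YY1 or ERR word. Capitals mark NRF1, ETS, YY1 or ERR words on either strand, and each window is written 5′ to 3′ on the strand of its gene. Mrpl39 (chr16:84735195-84735494, minus strand) holds the NRF1 word on both strands in one palindromic run. Mrpl42 (chr10:95501900-95502199, minus strand) holds a YY1 word. Mrps21 (chr3:95871465-95871764, minus strand), Mrps23 (chr11:88204138-88204437, plus strand) and Mrpl57 (chr14:57825989-57826288, plus strand) each hold an ETS word.
Mrpl39: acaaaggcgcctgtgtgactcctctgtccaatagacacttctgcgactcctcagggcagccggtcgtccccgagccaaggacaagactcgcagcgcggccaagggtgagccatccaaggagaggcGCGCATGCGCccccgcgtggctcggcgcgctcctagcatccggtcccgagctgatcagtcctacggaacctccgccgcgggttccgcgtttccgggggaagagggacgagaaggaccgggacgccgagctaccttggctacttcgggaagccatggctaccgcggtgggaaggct
Mrpl42: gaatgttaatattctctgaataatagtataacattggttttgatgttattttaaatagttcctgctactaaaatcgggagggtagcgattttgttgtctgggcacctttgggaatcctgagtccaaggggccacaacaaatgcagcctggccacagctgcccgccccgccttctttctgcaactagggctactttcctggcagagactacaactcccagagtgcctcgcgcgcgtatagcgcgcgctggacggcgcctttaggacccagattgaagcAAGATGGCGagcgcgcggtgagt
Mrps21: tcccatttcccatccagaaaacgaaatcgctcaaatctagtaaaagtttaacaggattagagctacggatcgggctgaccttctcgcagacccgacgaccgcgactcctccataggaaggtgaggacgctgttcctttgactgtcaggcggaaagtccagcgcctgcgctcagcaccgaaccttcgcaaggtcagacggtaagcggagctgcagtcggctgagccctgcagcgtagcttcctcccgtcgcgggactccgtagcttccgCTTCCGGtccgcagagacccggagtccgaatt
Mrps23: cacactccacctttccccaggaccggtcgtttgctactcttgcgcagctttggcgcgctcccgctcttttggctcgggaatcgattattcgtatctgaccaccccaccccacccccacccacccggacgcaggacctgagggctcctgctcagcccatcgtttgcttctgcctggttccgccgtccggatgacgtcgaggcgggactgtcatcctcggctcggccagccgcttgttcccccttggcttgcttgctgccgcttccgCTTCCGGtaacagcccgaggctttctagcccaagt
Mrpl57: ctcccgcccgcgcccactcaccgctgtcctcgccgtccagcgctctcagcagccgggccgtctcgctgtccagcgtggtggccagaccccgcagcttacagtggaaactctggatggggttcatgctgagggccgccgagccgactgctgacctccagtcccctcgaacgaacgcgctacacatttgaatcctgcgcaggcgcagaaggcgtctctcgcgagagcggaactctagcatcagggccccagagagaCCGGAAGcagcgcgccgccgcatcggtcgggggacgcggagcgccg
The same ETS word is thus found in the window of a gene that was lower and in the windows of 2 that were higher. Of the genes that passed the test as lower and have a window (10), 1 held an NRF1, 2 an ETS and 1 a YY1 word, and of the 3 higher ones with a window 2 held an ETS word.

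The first question was how pressure overload changed the family in hearts with the control virus. Summed over the 78 genes, the share of all counts was 0.239%, 0.237%, 0.231% and 0.238% in the AAV9-GFP sham mice and 0.252%, 0.251%, 0.259% and 0.239% in the AAV9-GFP TAC mice. Every TAC mouse was above every sham mouse on that scale. As CPM on library sizes adjusted by TMM, edgeR's correction for differences in composition, the sum was 2449, 2477, 2457 and 2508 in sham mice and 2355, 2310, 2464 and 2262 in TAC mice, so that 3 of 4 TAC mice were below every sham mouse and the fourth lay among them. The direction of the whole family therefore followed the scale.

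The libraries also differed in composition. Transcripts encoded by mitochondrial DNA took between 32.8% and 34.0% of counts in AAV9-GFP sham hearts and between 30.3% and 31.0% in AAV9-GFP TAC hearts, and the TMM factors were 0.940 to 0.977 in sham and 1.05 to 1.09 in TAC mice. As a share of nuclear counts the family was at 0.354% ± 0.0029 in sham and 0.361% ± 0.0123 in TAC hearts (SD, n = 4), a difference smaller than the spread of the TAC mice. In AAV9-Cardinal hearts the share of all counts was 0.236% ± 0.0058 in sham and 0.242% ± 0.0071 in TAC mice, and the TMM-adjusted sum was 2413 ± 58.8 and 2419 ± 77.2 CPM, with overlapping mice on both scales. Values below are on the TMM scale, on which the median log2 fold change of all genes was 0.005 with TAC in AAV9-GFP hearts.

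**Figure D3:**
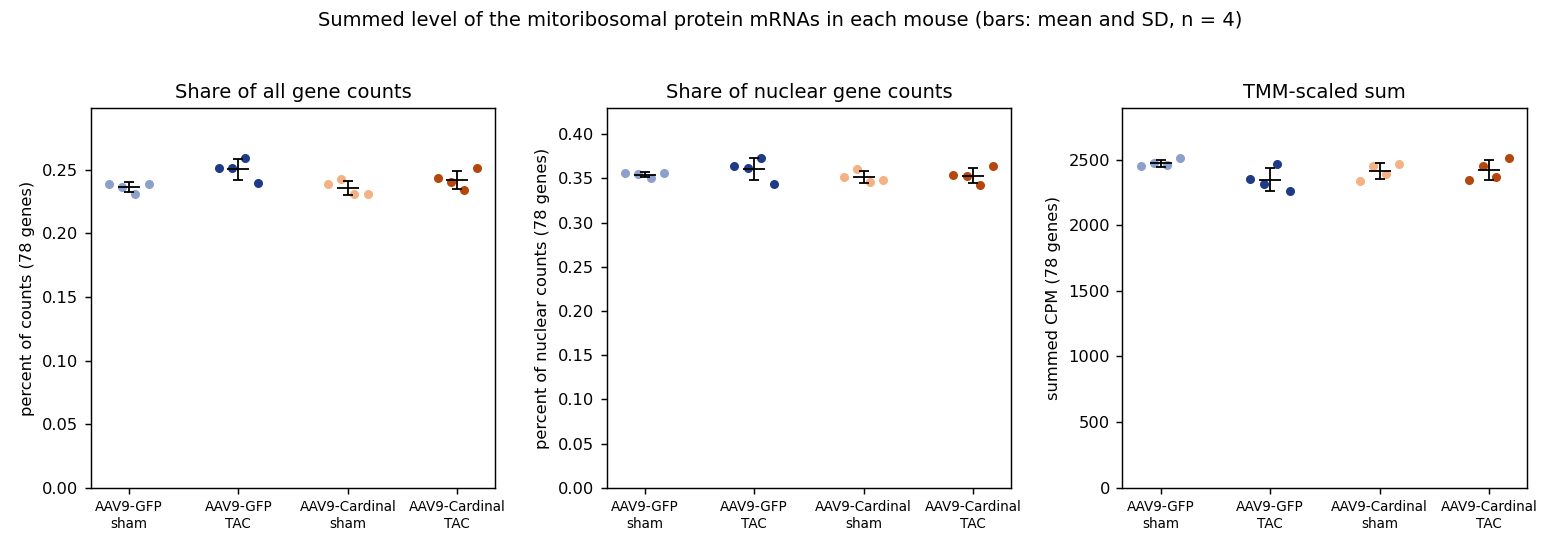
Summed level of the 78 genes in each of the 16 mice, as percent of all counts (left), percent of nuclear counts (middle) and TMM-adjusted CPM (right), with the mean and SD of 4 mice per group. With the control virus TAC mice lie above sham mice on the left (means 0.250% and 0.236%), 3 TAC mice lie above and 1 below every sham mouse in the middle (0.361% and 0.354%), and TAC mice lie mostly below them on the right (2348 and 2473 CPM).

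Gene by gene, 15 of the 78 passed the test between AAV9-GFP TAC and AAV9-GFP sham hearts (edgeR quasi-likelihood test, Benjamini-Hochberg adjusted p under 0.05 over 16857 genes). That is 19.2% of the family, beside 17.4% of all genes tested, so the family was called about as often as the table as a whole. It was 4 higher (5.13%, beside 8.49% of all genes) and 11 lower (14.1%, beside 8.92%). Without TMM factors the count was 21, of which 19 were higher (24.4%, beside 25.03% of all genes on that scale) and 2 lower (2.56%, beside 4.04%), so the split between directions depends on the scale. On the TMM scale the count was 6 without AAV9-GFP TAC mouse 3 and 9 without AAV9-GFP sham mouse 1, sham mouse 4 or TAC mouse 7. DESeq2 called the same 15 genes. The median log2 fold change was -0.05 beside 0.01 for all genes, a gap of -0.056, and without TMM factors it was 0.11 beside 0.16, again a gap of -0.056. Changes were small: the fold changes ran from -0.41 to 0.30 and 63 of the 78 were within 0.2 on the log2 scale.

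The groups of mice did not overlap for 21 of the 78 genes (26.9%, beside 20.3% of all genes), 5 of them higher (beside 10.1% of all genes) and 16 lower (beside 10.2%). Of the 15 genes that passed the test, 13 had groups without overlap, where the exact permutation test of 4 against 4 mice gives its smallest two-sided p of 0.029. Mrpl28 and Mrpl50 passed with overlapping groups (exact permutation p = 0.057). Large subunit genes made up 11 of the 15 (3 higher and 8 lower of 51) and small subunit genes 4 (1 higher and 3 lower of 26). Genes with bacterial homologs made up 7 of 46 and mitochondrion-specific genes 8 of 31. Among the 53 genes with under 10% of their exons overlapped by, or shared with, another gene, 12 passed, 3 higher and 9 lower.

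Mrpl39 had the largest change of the family. It encodes a mitochondrion-specific protein of the large subunit that is related to threonyl-tRNA synthetase (chr16:84717576-84735742, minus strand). Its level was 52.9, 51.2, 49.5 and 50.8 CPM in AAV9-GFP sham mice and 39.1, 37.6, 40.9 and 36.6 CPM in AAV9-GFP TAC mice. The highest TAC mouse was well below the lowest sham mouse, and the fitted level fell by 24.6% (log2 fold change -0.41, SE 0.05, adjusted p = 0.000124). It stayed lower without TMM factors (-0.25, adjusted p = 0.0064).

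Mrpl14, a conserved protein on the face of the large subunit that meets the small subunit (chr17:45686322-45698495, plus strand), was at 23.5, 20.2, 22.3 and 21.6 CPM in sham and 16.5, 16.2, 17.1 and 16.7 CPM in TAC mice. The groups were apart, with a log2 fold change of -0.40 (SE 0.07, adjusted p = 0.0017). It was also lower without TMM factors (-0.24, adjusted p = 0.037). Exons of Tmem63b on the opposite strand cover 11.2% of its exons.

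Mrpl42, the most abundant gene of the family in CPM (chr10:95480805-95501940, minus strand), was at 193, 200, 185 and 220 CPM in sham and 150, 164, 174 and 147 CPM in TAC mice. No TAC mouse reached the sham range, and the log2 fold change was -0.33 (SE 0.07, adjusted p = 0.0059). Mrps21 (chr3:95862634-95871519, minus strand) was at 38.2, 40.5, 39.5 and 39.4 CPM in sham and 31.1, 30.8, 36.2 and 30.6 CPM in TAC mice. TAC mouse 4 stood above the other TAC mice but below all sham mice, and the log2 fold change was -0.29 (SE 0.08, adjusted p = 0.023). Mrpl42 and Mrps21 are thus 2 of the 3 genes with the highest level per length, and the third, Mrps23, moved the other way. Without TMM factors neither passed the test (adjusted p of Mrpl42 0.063).

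The other 7 lower genes had fold changes between -0.25 and -0.16. Mrps35, a mitochondrion-specific protein of the small subunit (chr6:147042764-147073991, plus strand), went from a mean of 47.0 to 39.5 CPM (-0.25, adjusted p = 0.030). Mrpl49, mitochondrion-specific (chr19:6053622-6057785, minus strand), went from 26.9 to 22.8 CPM (-0.24, adjusted p = 0.036). Mrpl28, with a bacterial homolog (chr17:26123500-26126613, plus strand), went from 50.4 to 43.0 CPM (-0.23, adjusted p = 0.041). Of the 16 fits that left out 1 mouse, Mrps35 passed in 12, Mrpl49 in 11 and Mrpl28 in 6.

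Mrpl16, a conserved protein near the catalytic centre of the large subunit (chr19:11770391-11774960, plus strand), went from 36.7 to 31.7 CPM (-0.21, adjusted p = 0.020). Mrpl50, mitochondrion-specific (chr4:49512596-49521093, minus strand), went from 45.8 to 39.8 CPM (-0.20, adjusted p = 0.014). Mrpl48, mitochondrion-specific (chr7:100545751-100608301, minus strand), went from 25.0 to 22.01 CPM (-0.18, adjusted p = 0.045), and 13.7% of its sequence is shared with Rab6a. Mrps9, a conserved protein of the small subunit (chr1:42851233-42905683, plus strand), was at 52.9, 50.2, 52.9 and 53.7 CPM in sham and 46.7, 47.7, 47.7 and 45.4 CPM in TAC mice, a small change (-0.16, adjusted p = 0.033) with little spread. Mrpl48 passed in 3 and Mrps9 in 9 of the 16 fits that left out 1 mouse, and on library totals the value of Mrps9 was -0.001.

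Of the 4 higher genes Mrpl20, a bacterial-type protein of the large subunit that binds ribosomal RNA (chr4:155802878-155809975, plus strand), had the largest change. It was at 16.2, 17.7, 19.5 and 20.1 CPM in sham and 23.9, 21.7, 23.6 and 21.3 CPM in TAC mice (log2 fold change 0.30, SE 0.08, adjusted p = 0.023). Mrpl19, also of bacterial type (chr6:81957851-81965958, minus strand), was at 16.6, 15.9, 16.4 and 16.3 CPM in sham and 20.6, 18.5, 18.7 and 20.3 CPM in TAC mice (0.26, SE 0.07, adjusted p = 0.019). For both genes every TAC mouse was above every sham mouse. Exons of the antisense gene Gcfc2 cover 36.0% of those of Mrpl19.

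Mrpl57, a short mitochondrion-specific protein of the large subunit (chr14:57826234-57829296, plus strand), was at 11.40, 11.77, 10.98 and 11.19 CPM in sham and 13.5, 14.0, 12.6 and 13.2 CPM in TAC mice (0.23, SE 0.06, adjusted p = 0.013). Mrps23, the gene with the highest level per length (chr11:88204388-88211507, plus strand), was at 87.7, 91.4, 92.2 and 87.1 CPM in sham and 107, 100.02, 99.2 and 97.1 CPM in TAC mice (0.17, SE 0.05, adjusted p = 0.030). Both had groups without overlap. These 4 genes were higher without TMM factors as well, together with Mrpl39 and Mrpl14 as lower the 6 of the 15 that passed on both scales.

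**Figure D4:**
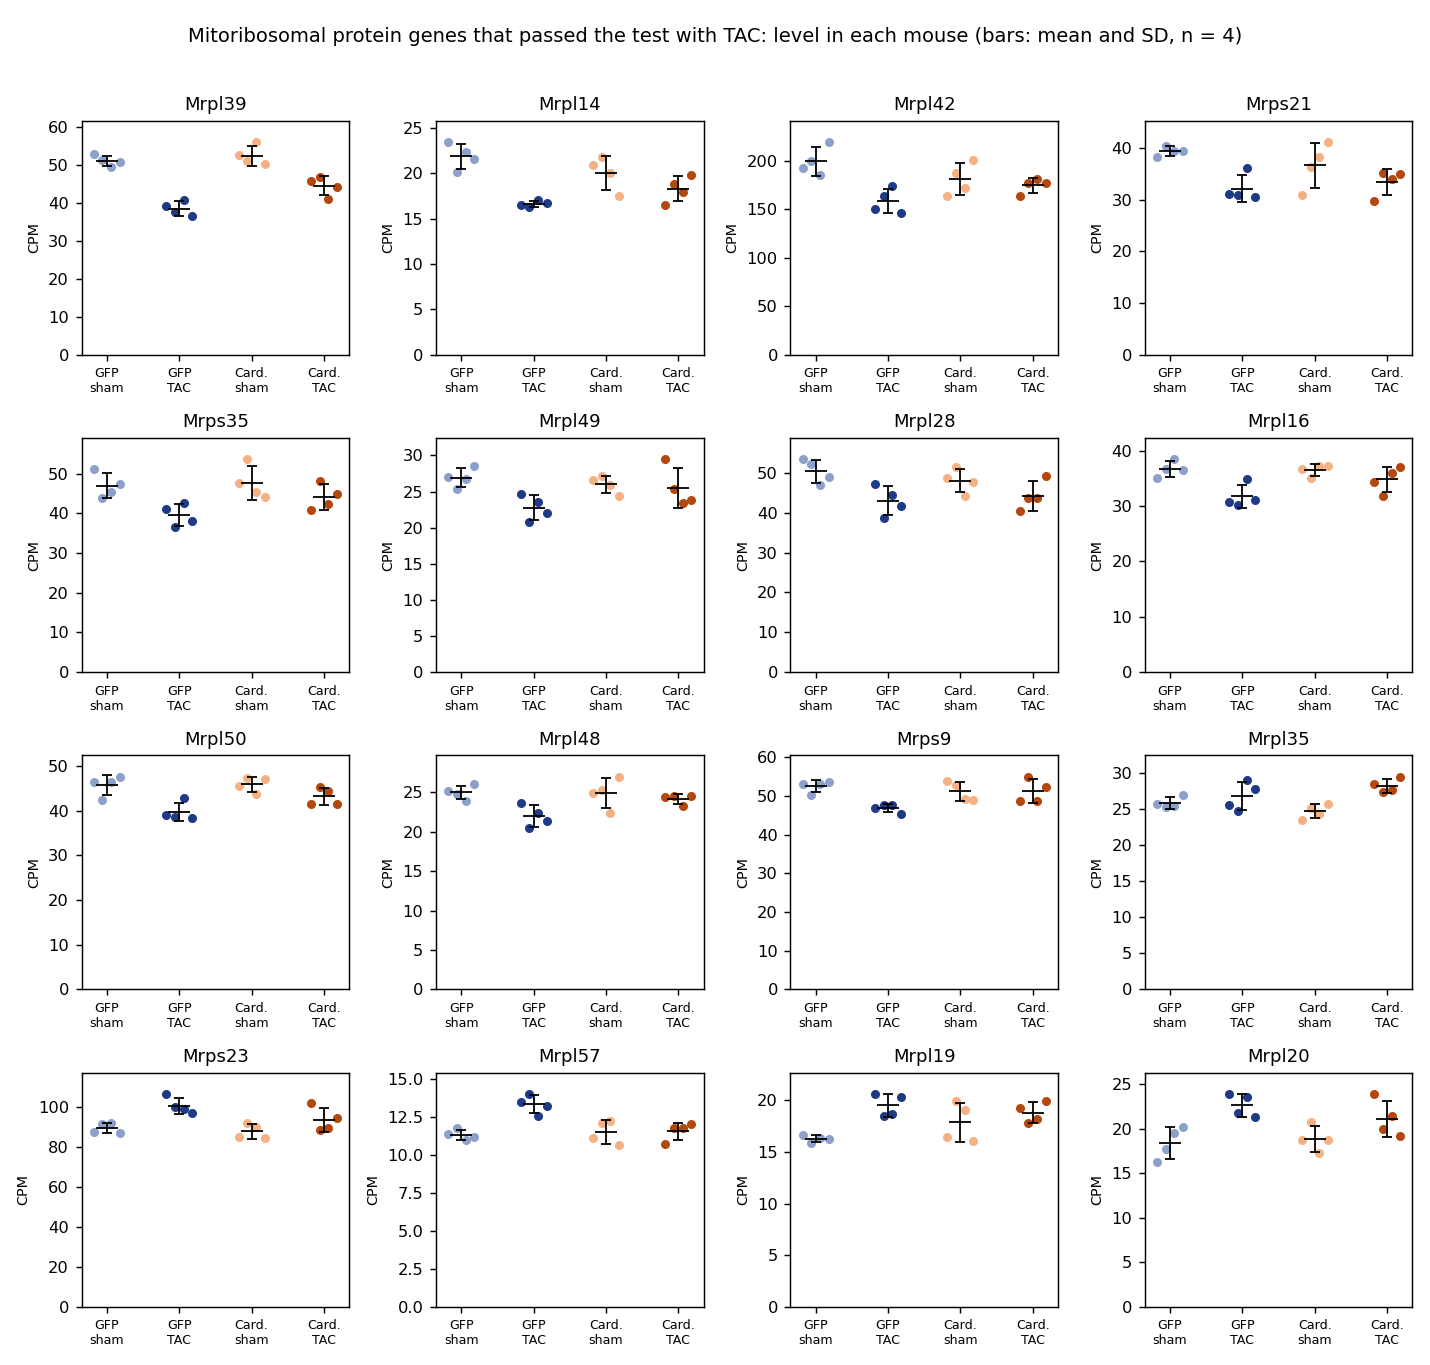
Level of the 16 genes that passed the test with TAC under either virus, in CPM per mouse on axes that start at 0, with the mean and SD of 4 mice per group. Mrpl39 is at 49.5 to 52.9 CPM in AAV9-GFP sham and 36.6 to 40.9 CPM in AAV9-GFP TAC hearts, and Mrps23 at 87.1 to 92.2 and 97.1 to 107 CPM.

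Genes chosen for their roles, whatever they showed, did not pass the test here. Mrpl12 was at 63.8 ± 2.09 CPM in sham and 67.8 ± 2.23 CPM in TAC hearts (log2 fold change 0.09, adjusted p = 0.35), and Gm16755 overlaps 13.1% of its exons. Mrpl45, at the side of the large subunit that faces the inner membrane, was at 40.9 ± 2.66 and 38.0 ± 3.19 CPM (-0.11, adjusted p = 0.29), and Mrps12, in the decoding centre, at 15.4 ± 0.77 and 16.5 ± 0.67 CPM (0.10, adjusted p = 0.27). Mrpl58, a peptide release factor that is also built into the large subunit, was at 20.6 ± 0.58 and 19.3 ± 0.503 CPM with groups that did not overlap (-0.10, adjusted p = 0.26).

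The 3 paralogs of bacterial S18 did not pass either. Mrps18a was at 36.0 ± 1.40 and 37.6 ± 3.14 CPM (0.06, adjusted p = 0.56), Mrps18b at 13.4 ± 0.816 and 15.3 ± 1.32 CPM (0.19, adjusted p = 0.11) and Mrps18c at 15.1 ± 1.124 and 15.5 ± 1.118 CPM (0.04, adjusted p = 0.78). Of their exons, 30.5% are overlapped by Gm16279 for Mrps18b and 23.2% by Gm43511 for Mrps18c. Mrps30 was at 23.4 ± 1.02 and 23.2 ± 1.25 CPM (-0.01, adjusted p = 0.93). Mrps36 was at 27.1 ± 0.798 and 24.6 ± 2.51 CPM (-0.14, adjusted p = 0.27), and 17.3% of its sequence is shared with the pseudogene Mrps36-ps1. These values are all within 0.2 of 0 on the log2 scale, and on library totals those of Mrps30, Mrps36, Mrpl45 and Mrpl58 turned positive. On that scale, where 25.03% of all genes tested and 24.4% of the family passed as higher, 6 of these 9 genes did so. They were Mrpl12 (adjusted p = 0.017), Mrps12 (0.0072), Mrps18a (0.013), Mrps18b (0.0037), Mrps18c (0.049) and Mrps30 (0.035).

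Other genes of mitochondrial translation were read from lists on the TMM scale, on which 8.92% of all genes tested were lower and 8.49% higher. On library totals the median of all genes was 0.164 instead of 0.005, so the direction of small values can depend on the scale. Of the 5 mitoribosomal proteins with other symbols, Dap3, a GTP-binding protein of the small subunit, was lower (50.6 ± 1.46 to 42.8 ± 2.61 CPM, log2 fold change -0.24, adjusted p = 0.0033), and Ptcd3, Aurkaip1, Gadd45gip1 and Chchd1 did not pass. Of 26 genes of mitoribosome assembly and rRNA modification 4 were lower and none higher: Rpusd4 (-0.30), Mtg2 (-0.27), Eral1 (-0.21) and Mtg1 (-0.21). Of 15 genes listed as translation factors or related proteins Gfm1 and Lrpprc were lower (-0.17 each). Of 20 genes of aminoacyl-tRNA synthesis 6 were lower, led by Gatb (-0.31) and Nars2 (-0.28). None of the 8 genes of mitochondrial transcription and DNA maintenance passed, among them Tfam (0.13, adjusted p = 0.20) and Polrmt (0.07, adjusted p = 0.66), and 1 of the 8 had an unadjusted p under 0.05.

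The RNA partners of these proteins were lower on the TMM scale. The mitochondrial rRNAs mt-Rnr1 (12S) and mt-Rnr2 (16S) had log2 fold changes of -0.93 (SE 0.28, adjusted p = 0.034) and -0.86 (SE 0.28, adjusted p = 0.045), with wide spread among sham mice (1906 to 4620 CPM for mt-Rnr1, highest in mouse 4, beside 972.3 to 1867 CPM in TAC mice). For mt-Rnr2 the groups overlapped, at 4033 to 9575 CPM in sham mice, highest in mouse 4, and 2189 to 4663 CPM in TAC mice. Poly(A) selection of the RNA recovers rRNA only in part. Of the 13 mitochondrial mRNAs 11 were lower. Cytosolic ribosomal protein genes stood at a median of -0.0005, with 4 of 87 called, 2 in each direction.

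Of 12 nuclear regulators of mitochondrial genes only Myc passed (0.88, adjusted p = 0.046). Gabpa, a subunit of the ETS factor GABP, was at -0.19 (adjusted p = 0.055), Nrf1 at 0.08 (adjusted p = 0.67) and Ppargc1a at -0.21 with an SE of 0.38 (adjusted p = 0.78). Hypertrophy markers showed the response to the load: Acta1 (log2 fold change 4.22), Nppa (3.58) and Nppb (1.96) rose, and Myh7 (0.07) did not pass.

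Markers of cell types moved in the same comparison. Of 8 cardiomyocyte markers 7 were lower, and their sum went from 52979 to 56690 CPM in sham to 39041 to 47343 CPM in TAC mice. Of 7 fibroblast markers 4 were higher (463 to 529 CPM in sham, 799.7 to 1037 CPM in TAC mice), as were 2 of 6 endothelial markers. The 6 smooth muscle and pericyte markers were mixed, with 2 called higher and none lower. Of these 6, 4 had positive and 2 had negative values (median log2 fold change 0.031). Their summed level overlapped between the groups, at 598 to 827 CPM in sham and 640 to 690 CPM in TAC mice. None of 6 macrophage and none of 5 red blood cell markers passed in the edgeR test (unadjusted p under 0.05 for 1 and for 0). Of 5 lymphocyte and 4 atrial markers 1 and 2 were expressed enough to be fitted, and Nppa alone passed. Their part in the values of the mitoribosomal genes was not tested.

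The next question was what the same load did in hearts that received Cardinal. Only 2 of the 78 genes passed the test between AAV9-Cardinal TAC and AAV9-Cardinal sham hearts (2.56%, beside 6.48% of all genes tested), 1 higher (beside 3.1% of all genes) and 1 lower (beside 3.38%). An unadjusted p under 0.05 was found for 10 genes, these 2 included (12.8%, beside 21.8% of all genes). The median log2 fold change was -0.002 beside -0.0005 for all genes, and 75 of the 78 were within 0.2. The groups did not overlap for 5 genes (6.41%, beside 13.7% of all genes): Mrpl1, Mrpl30 and Mrpl35 were higher (beside 6.51% of all genes), and Mrpl39 and Mrpl58 lower (beside 7.21%).

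Mrpl39 was again the lower one. It was at 52.6, 51.0, 56.1 and 50.2 CPM in AAV9-Cardinal sham mice and 45.9, 46.9, 41.1 and 44.2 CPM in AAV9-Cardinal TAC mice, without overlap (log2 fold change -0.24, SE 0.05, adjusted p = 0.017). Without TAC mouse 5 its adjusted p was 0.062 (-0.20). Mrpl39 was the single gene of the family that passed with TAC under both viruses.

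Mrpl35, a large subunit protein with a bacterial homolog (chr6:71812997-71826969, minus strand), was at 23.5, 25.1, 24.4 and 25.8 CPM in AAV9-Cardinal sham and 28.5, 27.4, 27.7 and 29.5 CPM in AAV9-Cardinal TAC mice (0.19, SE 0.05, adjusted p = 0.047). The groups were apart. It passed in 3 of the 16 fits that left out 1 mouse. In AAV9-GFP hearts its mice overlapped (0.05, adjusted p = 0.59). Without AAV9-Cardinal TAC mouse 1, in which Gm12295 was highest, or without AAV9-Cardinal sham mouse 4, which had the lowest total, 1 gene was called, and the median without TAC mouse 1 was 0.025.

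Of the genes that were lower with the control virus, Mrpl14 was at 20.97, 21.75, 19.99 and 17.45 CPM in sham and 16.5, 18.8, 17.9 and 19.8 CPM in TAC mice, which overlapped (-0.14, adjusted p = 0.30). Mrpl42 was at 164, 188, 172 and 201 CPM in sham and 164, 178, 181 and 178 CPM in TAC mice (-0.05, adjusted p = 0.77). Mrps21 was at 30.9, 36.3, 38.2 and 41.2 CPM in sham mice, a wider range than with the control virus, and at 29.7, 35.2, 34.1 and 34.9 CPM in TAC mice (-0.13, adjusted p = 0.39). None of these 3 had groups apart.

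Among the higher genes Mrpl57 was at 11.1, 12.1, 12.3 and 10.6 CPM in AAV9-Cardinal sham and 10.75, 11.75, 11.78 and 12.02 CPM in TAC mice, with overlapping groups (0.004, adjusted p = 1.00). Mrpl20 had a value of 0.16 (adjusted p = 0.28), Mrps23 of 0.09 (adjusted p = 0.31) and Mrpl19 of 0.07 (adjusted p = 0.62). The largest value of the family was that of Mrpl53 (0.33, SE 0.16), which did not pass (adjusted p = 0.23) and had a wide spread. Exons of Gm42688 on the same strand cover 88.0% of those of Mrpl53, so its reads may not be its own.

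The 2 TAC comparisons share no mice. Over the 78 genes the log2 fold changes had a Pearson correlation of 0.60 and a Spearman correlation of 0.55, and 57 (73.1%) had the same sign, beside 68.1% of all genes tested. All 15 genes called with the control virus had the same sign with Cardinal, as did 2699 of the 2934 genes of the table called with the control virus (92.0%). These are correlations across genes, which are not independent replicates. Of the genes whose sign differed, 17 were negative with GFP and positive with Cardinal, and 4 the reverse.

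**Figure D5:**
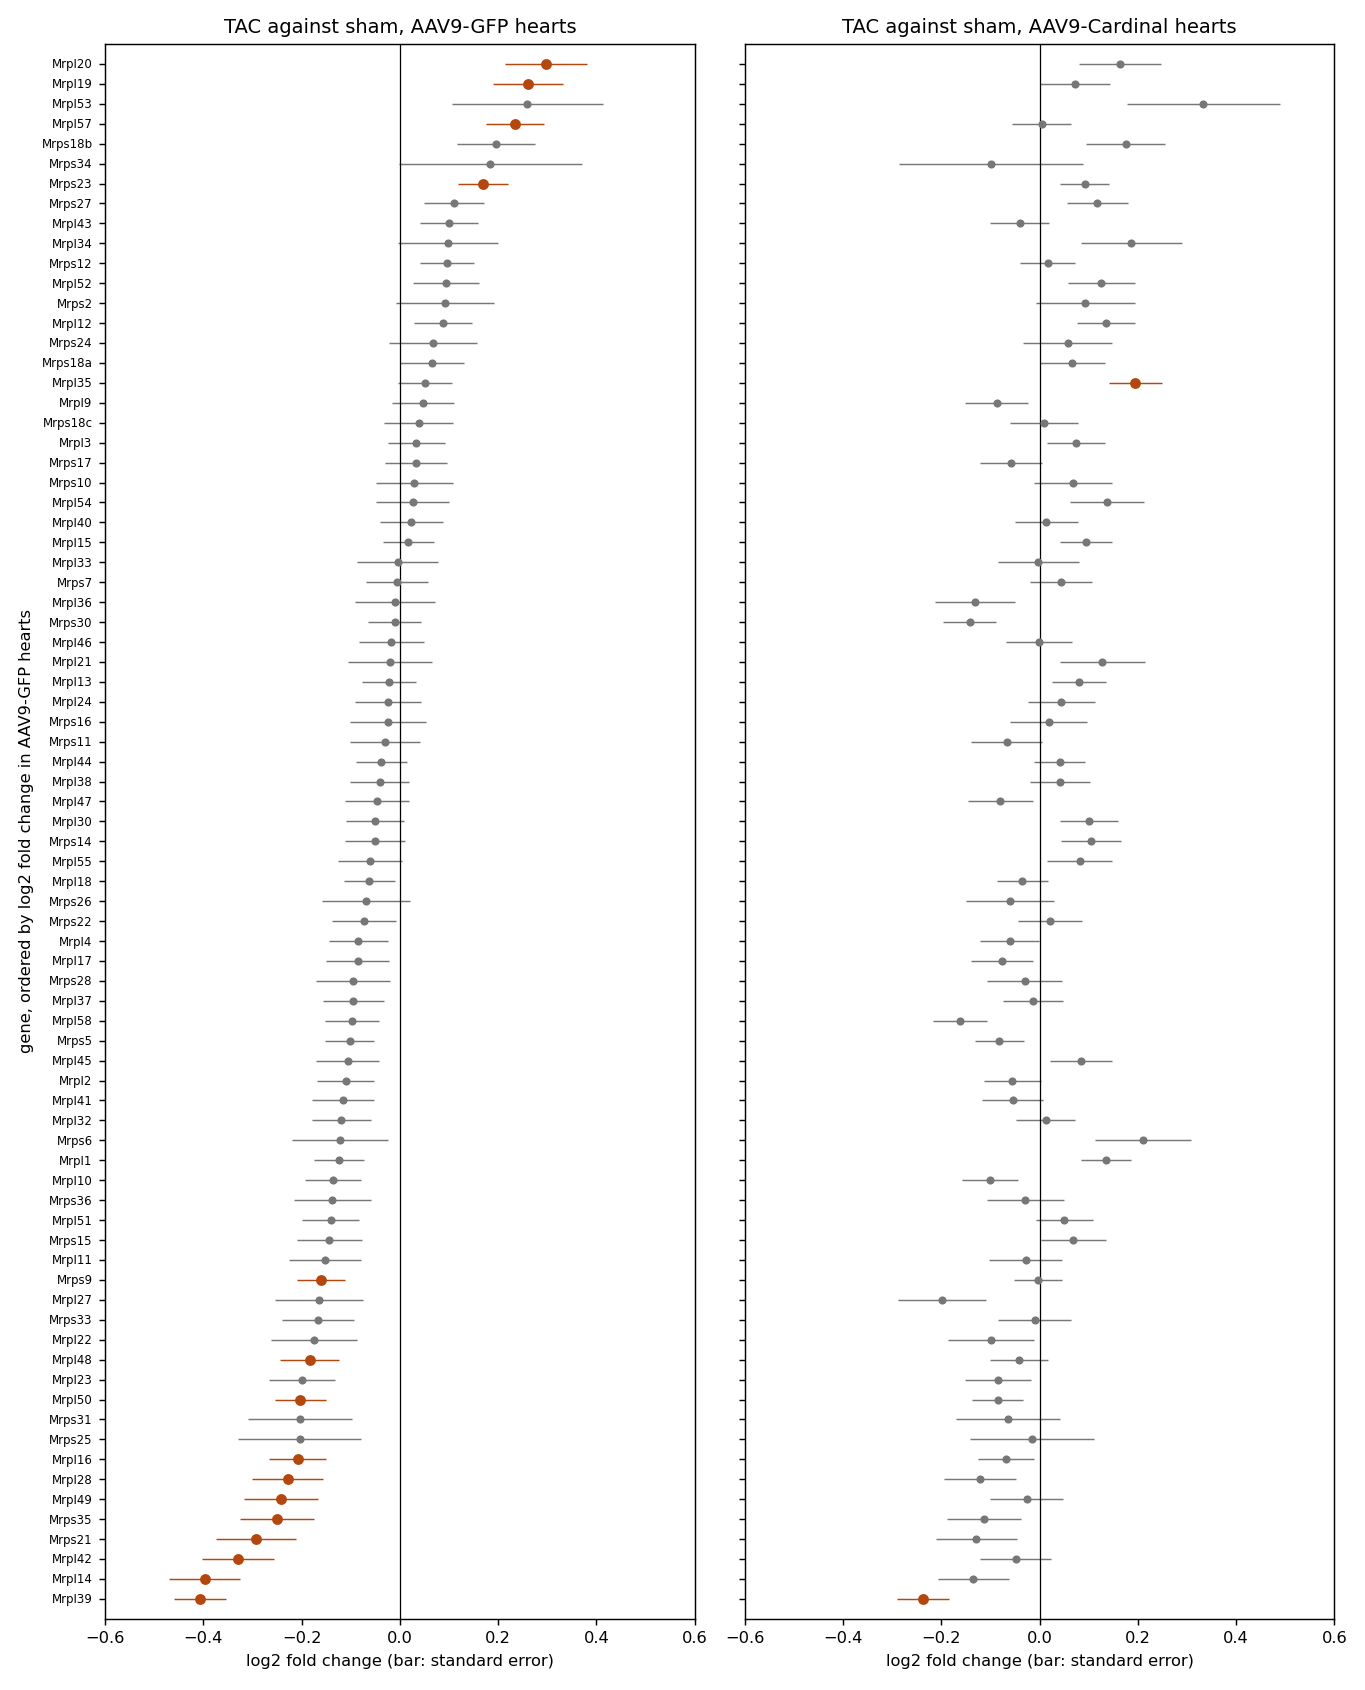
Log2 fold change with TAC of each of the 78 genes under AAV9-GFP (left) and AAV9-Cardinal (right), ordered by the left panel, with bars for the standard error and larger coloured points for genes that passed the test. On the left 15 genes passed (11 lower, 4 higher), on the right Mrpl39 and Mrpl35.

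In AAV9-Cardinal hearts none of the 5 mitoribosomal proteins with other symbols passed, and Dap3 had a value of -0.06 (adjusted p = 0.51). Eral1 (-0.23, adjusted p = 0.034), a GTPase that binds the small subunit rRNA, and Mtg1 (-0.24, adjusted p = 0.037), an assembly GTPase of the large subunit, were lower, 2 of the 26 assembly genes, and both had also been lower with the control virus. Of 20 genes of aminoacyl-tRNA synthesis 2 were lower, among them Iars2 (-0.14). None of the 15 genes listed as translation factors or related proteins passed or had an unadjusted p under 0.05. The rRNAs mt-Rnr1 and mt-Rnr2 were at 0.24 (adjusted p = 0.69) and 0.22 (adjusted p = 0.72), and none of the 13 mitochondrial mRNAs passed, 5 of them with an unadjusted p under 0.05. Cardiomyocyte markers were lower for 2 of 8 (sum 51282 to 56546 CPM in sham and 47684 to 52468 CPM in TAC mice) and fibroblast markers higher for 1 of 7, with the highest sum in TAC mouse 1 (869.8 CPM).

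Whether the family differed between the Cardinal and GFP inserts without load was asked in the sham hearts. Both sham groups received AAV9, so an effect of the virus itself could not be examined. No gene of the family passed between AAV9-Cardinal sham and AAV9-GFP sham hearts (edgeR, beside 0.0119% of all genes tested), and 1, Mrps30, had an unadjusted p under 0.05 (1.28%, beside 2.59% of all genes). DESeq2 called none either. The median log2 fold change was -0.028 beside -0.0001 for all genes, and 0.006 beside 0.033 without TMM factors. The highest values were those of Mrpl36 (0.15, SE 0.08), Mrpl19 (0.13, SE 0.07) and Mrps30 (0.12, SE 0.05), and the lowest those of Mrps25 (-0.23, SE 0.13), Mrps6 (-0.19, SE 0.10) and Mrpl34 (-0.16, SE 0.10). The value of Mrps25 comes with the high AAV9-GFP sham mouse 4 described above.

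The sham groups did not overlap for 4 genes, all lower with Cardinal (5.13%, beside 2.36% of all genes, of which 1.2% were higher and 1.16% lower): Mrpl1, Mrpl21, Mrpl52 and Mrpl55. Mrpl1, which forms the stalk where spent tRNAs leave the ribosome, was at 24.1, 24.4, 24.3 and 24.9 CPM in AAV9-GFP sham and 22.01, 22.96, 23.16 and 22.77 CPM in AAV9-Cardinal sham mice. Its spread was small in both groups, and it did not pass the test across all genes.

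In TAC hearts no gene of the family passed between the viruses either (edgeR, beside 0.101% of all genes tested, 0.0237% higher and 0.0771% lower), and 11 had an unadjusted p under 0.05 (14.1%, beside 15.0% of all genes). DESeq2 called 1 gene, Mrpl39 (adjusted p = 0.018). The median log2 fold change was 0.036 beside -0.007 for all genes, and without TMM factors it was -0.056 beside -0.098. Mrpl39 was the highest at 0.21 (SE 0.05, adjusted p = 0.096): its AAV9-GFP TAC mice were at 36.6 to 40.9 CPM and its AAV9-Cardinal TAC mice at 41.1 to 46.9 CPM, without overlap. Mrpl49 (0.17) and Mrpl45 (0.17) followed, and Mrpl57 was lowest (-0.20, SE 0.06, adjusted p = 0.13), before Mrps34 (-0.18) and Mrpl43 (-0.15).

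The TAC groups were apart for 5 genes, Mrpl1, Mrpl39, Mrpl45 and Mrps9 with higher and Mrpl57 with lower levels after Cardinal (6.41%, beside 6.77% of all genes, 3.58% higher and 3.19% lower). Mrpl45 was at 40.8, 35.5, 40.7 and 34.9 CPM in AAV9-GFP TAC and 41.4, 43.4, 41.2 and 45.3 CPM in AAV9-Cardinal TAC mice. The lowest Cardinal mouse was just above the highest GFP mouse (adjusted p = 0.21). In the same comparison all 8 cardiomyocyte markers had positive values and 7 an unadjusted p under 0.05, with none called. All 7 fibroblast markers (5 with an unadjusted p under 0.05), all 6 macrophage markers (2) and all 6 smooth muscle and pericyte markers (2) had negative values, and both mitochondrial rRNAs positive values with an unadjusted p under 0.05. Their part in the values of the family was not tested. Without AAV9-Cardinal TAC mouse 1 no gene was called and the median was 0.062.

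The difference between the TAC responses of the 2 viruses was tested by the interaction term. No gene of the family passed (edgeR, beside 0.0119% of all genes tested), 9 had an unadjusted p under 0.05 (11.5%, beside 10.2% of all genes), and DESeq2 called none, with no adjusted p for 48 of the 78. The median was 0.066 beside -0.0007 for all genes, and without TMM factors -0.059 beside -0.125. Without AAV9-Cardinal TAC mouse 1 no gene was called and the median was 0.068. On the TMM scale 59 of the 78 genes had a positive value, a less negative or more positive change with Cardinal. The highest values were those of Mrps6 (0.33, SE 0.14, adjusted p = 0.43), Mrpl42 (0.28, SE 0.10, adjusted p = 0.38) and Mrpl14 (0.26, SE 0.10, adjusted p = 0.40), and the lowest those of Mrps34 (-0.28, SE 0.26), Mrpl57 (-0.23, SE 0.08, adjusted p = 0.38) and Mrpl19 (-0.19, SE 0.10). The values of mt-Rnr1 and mt-Rnr2 were 1.17 (adjusted p = 0.36) and 1.08 (adjusted p = 0.38).

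The counts of 15 and 2 genes called with TAC are therefore not shown to differ between the viruses. The interaction has the largest error of the 5 comparisons, with an SE of 0.07 for Mrpl39 against 0.05 for each TAC response. For Mrpl39 the interaction was 0.17 (adjusted p = 0.45).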

How the data were processed

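RNA-Seq counts per gene from 16 mouse hearts were used. The authors deposited raw counts per gene. Per the labels, single-end reads of 50 bases came from poly(A)-selected RNA, and the submitters' processing notes name FastQC, HISAT2 2.1.0, edgeR 3.26.1 and the build GRCm38, with no order. The counting program, its annotation and its strand setting are not given in the sources used here, so reads of overlapping genes could not be assigned by strand. Per the labels the replicates are separate mice.

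Gene IDs were named with GENCODE M21, which held 55480 of 55573, and 93 stayed unnamed. No column was left out. Genes were kept by edgeR's expression filter over 4 groups. All 16 mice were fitted together with edgeR 4.0.16 (glmQLFit and glmQLFTest, TMM factors, R 4.3.3), with 5 contrasts and Benjamini-Hochberg adjustment over 16857 genes. Standard errors were taken as the log2 fold change over the square root of F. CPM are on TMM-adjusted library sizes, and CPM per kb on the union of a gene's exons. Single genes were also compared by an exact two-sided permutation test over 70 labelings. The procedure was tested on simulated data.

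Totals ran from 16441997 to 21904589 counts per mouse. The limit of 3 counts covers counting error only, while the SDs and standard errors include variation between mice. The coefficient of variation shared by genes in the fit was 0.128, and counts of pairs of mice within a group differed by 5.49 to 16.4 times the sampling noise (chi-square per degree of freedom), so no library was a copy of another in its group.

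Genes named in the text were those that passed the test, or the 3 highest and 3 lowest where none passed, the 6 highest and 4 lowest levels per length, and 9 genes named for their roles. Others are named from counts of 5 or fewer, after their values were seen. The family and all gene lists, marker lists and promoter words were chosen with earlier results of these data known. Alternatives tried were DESeq2 1.42.0, RLE factors, library totals alone, other filters, the 8 mice compared alone, a robust spread, removal of mitochondrially encoded genes, a GC offset, a replicate block and leaving out each mouse. Chosen after seeing the data were the genes under 10% overlapped or shared and the summed level with TMM factors. No test was run over the family as a set.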

Additional observations from a re-analysis of the deposited data

Results flagged for a closer look

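Among the named genes 140 groups of 4 mice were examined for a single mouse far from the others, and 5 held one, where chance gives about 5%. In AAV9-GFP TAC hearts Mrpl43 was at 27.3 CPM in mouse 1 and between 23.3 and 23.6 CPM in the others. In the same group mouse 4 was apart for Mrpl50 (42.9 CPM, others 38.4 to 39.0) and for Mrps21 (36.2 CPM, others 30.6 to 31.1), in both cases on the side of the sham mice. Mrpl48 was at 23.3 CPM in AAV9-Cardinal TAC mouse 5 and between 24.4 and 24.6 CPM in the others. Mrps25 was at 34.4 CPM in AAV9-GFP sham mouse 4 and between 23.3 and 24.8 CPM in the others.

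Mrpl1 had values of opposite sign with TAC under the 2 viruses, neither of which passed the test. It was at 24.1, 24.4, 24.3 and 24.9 CPM in AAV9-GFP sham and 21.3, 23.7, 23.4 and 21.3 CPM in AAV9-GFP TAC mice (log2 fold change -0.12, adjusted p = 0.11). With Cardinal it was at 22.01, 22.96, 23.16 and 22.77 CPM in sham and 23.8, 26.9, 24.8 and 24.4 CPM in TAC mice (0.13, adjusted p = 0.13). Neither pair of groups overlapped. The test of the difference gave 0.26 (SE 0.07), which did not pass over all genes (edgeR adjusted p = 0.30). On library totals the value with GFP was 0.036, so its sign depends on the scale.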

How the results depend on the processing

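None of the 15 genes called with TAC in AAV9-GFP hearts and neither of the 2 in AAV9-Cardinal hearts changed its sign there under any alternative, and the gap between the median of the family and that of all genes lay between -0.059 and -0.041 for TAC with the control virus, and between -0.081 (without TAC mouse 4) and -0.038 (without TAC mouse 7) when 1 mouse was left out. Mrpl39, Mrpl14, Mrpl42 and Mrpl57 passed in all 16 fits that left out 1 mouse. Leaving out 1 mouse gave 6 to 15 genes called with TAC in AAV9-GFP hearts (6 without TAC mouse 3, and 9 without sham mouse 1, sham mouse 4 or TAC mouse 7) and 0 to 2 in AAV9-Cardinal hearts (0 without TAC mouse 5). The other 3 comparisons had 0 in each fit. Medians under leaving out 1 mouse ran from -0.073 to -0.029 for TAC with GFP, -0.0093 to 0.025 for TAC with Cardinal, -0.040 to -0.020 and 0.0096 to 0.062 for Cardinal against GFP in sham and in TAC hearts, and 0.034 to 0.096 for the interaction. The log2 ratio of the summed share ran from 0.067 to 0.105 with GFP and from 0.021 to 0.055 with Cardinal.

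On library totals alone the median turned in sign in every comparison. It was 0.108 for TAC with GFP (all genes 0.164) and 0.032 for TAC with Cardinal (all genes 0.034). For Cardinal against GFP it was 0.006 in sham hearts (all genes 0.033) and -0.056 in TAC hearts (all genes -0.098). The interaction had -0.059 (all genes -0.125), and 1 gene was called for TAC with Cardinal. For TAC with GFP the values of Mrps36 (0.021), Mrpl58 (0.063), Mrps30 (0.15, called there with adjusted p = 0.035), Mrpl45 (0.053) and Mrpl1 (0.036) turned positive on library totals, and apart from Mrps30 none of these was called. The GC offset turned Mrps30 with GFP to 0.0092 and Mrpl57 with Cardinal to -0.0096, both near 0. Leaving out 1 mouse moved Mrps30 with GFP between -0.045 and 0.019, and with Cardinal Mrpl42 between -0.095 and 0.0047 and Mrpl57 between -0.030 and 0.041. With every gene of at least 1 count, with the 8 mice alone and with the GC offset 1 gene was called for TAC with Cardinal. DESeq2 called 1 gene for Cardinal against GFP in TAC hearts. Of nuclear counts the log2 ratio of the summed share was 0.027 with GFP, against 0.084 of all counts, and -0.075 with TMM factors. Apart from the scale itself the cause was not tested.

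Same-numbered mice did not all deviate together across groups: the mice numbered 1 correlated at 0.103 to 0.211 in the 4 comparisons, and the others at -0.04 to 0.09. Whether the mice numbered 1 share more than a number was not tested. Mouse 1 had the lowest mt-Rnr1, mt-Rnr2 and red blood cell marker CPM of its group in all 4 groups. With the replicate block 7 genes were called for TAC with GFP (2 higher and 5 lower) and 0 for TAC with Cardinal, the value of Mrpl53 with Cardinal was -0.015, and the medians were -0.018 for Cardinal against GFP in TAC hearts (all genes -0.0041) and 0.024 for the interaction.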
